A study of Rattus norvegicus with 27 samples.

Results

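The translation initiation and elongation factors are the proteins that place the ribosome on the start codon and then move it along the message. The genes were chosen by name: every gene symbol of the array annotation that starts with Eif or Eef followed by a digit. This gave 51 genes out of the 9769 genes in the table, 40 of them with an Eif and 11 with an Eef name. The naming rule also took in genes of regulators, such as kinases that act on these factors, proteins that hold them back and enzymes that methylate them. All counts of members include these. They were represented by 65 of the 12913 probe sets tested. For the 12 genes with several probe sets, the probe set with the highest mean signal over all arrays stood for the gene.

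The cells were tail motor neurons of adult male Wistar rats, labelled through their axons by Fluorogold given into muscle and the abdominal cavity, and cut by laser from 10 µm sections of the sacral cord. The Spi-21 group (n = 8 samples) and the Spi-60 group (n = 8) came from rats whose cord had been transected at S2, with a short piece of tissue taken out, 21 or 60 days earlier. The ShamC-21 group (n = 6) and the ShamC-60 group (n = 5) had the vertebral arches opened at the same times with the dura intact. Rats of all 4 groups received buprenorphine for pain and the tracer 5 to 7 days before the cells were taken. Each sample pooled 100 to 200 neurons, and its RNA was amplified in 2 rounds before it was hybridised to an Affymetrix array. Signals are log2 values, and every difference is the transected value minus the sham value unless another is named. The labels do not tie samples to animals, and the p-values measure only the spread between these samples.

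Initiation begins when eIF2 brings the initiator tRNA to the small ribosomal subunit, with eIF1A and eIF3 bound to it. The eIF4F complex, made of the cap-binding protein eIF4E, the scaffold eIF4G and the helicase eIF4A, then recruits the message, and 4E-BP proteins hold eIF4E back. During elongation eEF1A delivers aminoacyl-tRNA and eEF2 moves the ribosome forward. Adult neurons and muscle are known to use eEF1A2 in place of the widespread eEF1A1, and mice that lack Eef1a2 lose motor neurons.

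Promoters of 46 of the 51 genes were found in RefSeq, in windows from 250 bases before to 50 bases after the annotated start (build GRCr8). The stretches below, from 100 bases before the start to 20 bases after it, are shown for the eEF1A pair, which moved in opposite directions, and for 3 genes of other roles. Each is written 5′ to 3′ on the gene's own strand. Capitals mark the E-box CACGTG, the cAMP response element TGACGTCA, the TATA-like TATANAA, and a C followed by at least 4 pyrimidines within 5 bases of the start. The motifs were picked with the promoters in view.
Eef1a1 (chr8:88225050-88225169, minus strand): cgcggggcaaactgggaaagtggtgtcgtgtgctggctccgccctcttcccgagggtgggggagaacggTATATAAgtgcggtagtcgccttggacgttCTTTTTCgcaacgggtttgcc
Eef1a2 (chr3:188652614-188652733, minus strand): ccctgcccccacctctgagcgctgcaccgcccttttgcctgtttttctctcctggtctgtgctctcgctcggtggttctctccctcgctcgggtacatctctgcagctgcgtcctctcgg
Eif4g1 (chr11:93746348-93746467, minus strand): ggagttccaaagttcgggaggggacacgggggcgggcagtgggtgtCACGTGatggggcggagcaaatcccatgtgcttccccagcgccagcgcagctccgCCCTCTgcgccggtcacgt
Eef2 (chr7:9189219-9189338, minus strand): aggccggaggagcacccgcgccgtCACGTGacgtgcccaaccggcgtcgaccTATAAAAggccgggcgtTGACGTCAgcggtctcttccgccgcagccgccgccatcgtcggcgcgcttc
Eif2s1 (chr6:103405780-103405899, plus strand): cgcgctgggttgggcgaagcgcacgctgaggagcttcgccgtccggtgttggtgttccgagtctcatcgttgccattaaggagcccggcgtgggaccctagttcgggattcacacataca
In these 5 stretches, Eef1a1 and Eef2 held a TATA-like motif, Eif4g1 and Eef2 held an E-box, and Eef1a1 and Eif4g1 held the pyrimidine run. None of the 4 motifs was in the shown stretches of Eef1a2 and Eif2s1. Over the whole 300-base windows and both strands, CACGTG was in 10 of 46 member promoters (21.7%), against 6.65% of all 27457 promoters and 8.88% of those of genes in the table. The ETS motif CCGGAAG was in 15 of 46 (32.6%), against 9.22% of all promoters and 15.8% of those of genes in the table. The pyrimidine run, read on the gene's strand, was at the start of 14 of 46 (30.4%), against 17% of all promoters and 17.1% of those of genes in the table. TATANAA was in 4 of 46 (8.7%), against 12.6% of all promoters and 6.65% of those of genes in the table. TGACGTCA was in 1 of 46 (2.17%), against 1.91% of all promoters and 2.83% of those of genes in the table. The shares are descriptions of the letters in these windows, with no test.

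At 21 days, 6 of the 51 genes were higher and 15 lower in Spi-21 than in ShamC-21 arrays (limma, adjusted p under 0.05 over all probe sets). The remaining 30 did not pass. That is 41.2% of the members, against 22.6% of all probe sets and the same share of all genes. In single directions, 11.3% of all probe sets were higher and 11.2% lower. At an unadjusted p under 0.05 there were 28 of 51, against 36.4% of all probe sets. The median difference of the members was -0.17, beside 0.01 for all probe sets. At 60 days, 10 genes were higher and 8 lower in Spi-60 than in ShamC-60 arrays, or 35.3% of the members. The background at that day was 19.1% of all probe sets, 10.2% higher and 8.92% lower. At an unadjusted p under 0.05 there were 27 of 51, against 33.6%. The member median was -0.06, beside 0.02 for all probe sets. Without Spi-21 replicates 1 to 4, the 21-day count was 5 higher and 8 lower, and Eif4ebp2, Eef1a1, Eef1akmt2, Eif2s1, Eif2s2, Eif3c, Eif3j, Eif3m and Eif5b no longer passed. In the same fit Eif4e3 passed as lower, with a difference of -1.06 (limma adjusted p = 0.00203), beside -0.51 (adjusted p = 0.0982) with all arrays. Without ShamC-60 replicates 1 and 4, which an earlier look at these data had found apart, the 60-day count was 3 higher (Eef1a2, Eif5a and Eif4ebp2) and 3 lower (Eef1a1, Eif1a and Eif2a). In bulk samples of this kind, fewer cells of a type and less RNA per cell cannot be told apart.

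Passing at both days in the same direction were 13 genes, where 10.2% of all probe sets did. The 5 higher ones were Eef1a2, Eif5a, Eif4g1, Eif4a1 and Eif4ebp2, and the 8 lower ones were Eef1a1, Eif1a, Eif2a, Eif2s1, Eif2s2, Eif2ak4, Eif3a and Eef1akmt2. A further 8 genes passed at 21 days alone and 5 at 60 days alone, and 25 passed at neither day. The sign differed between the days in 7 genes, and 0 genes passed with opposite signs.

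**Figure D1:**
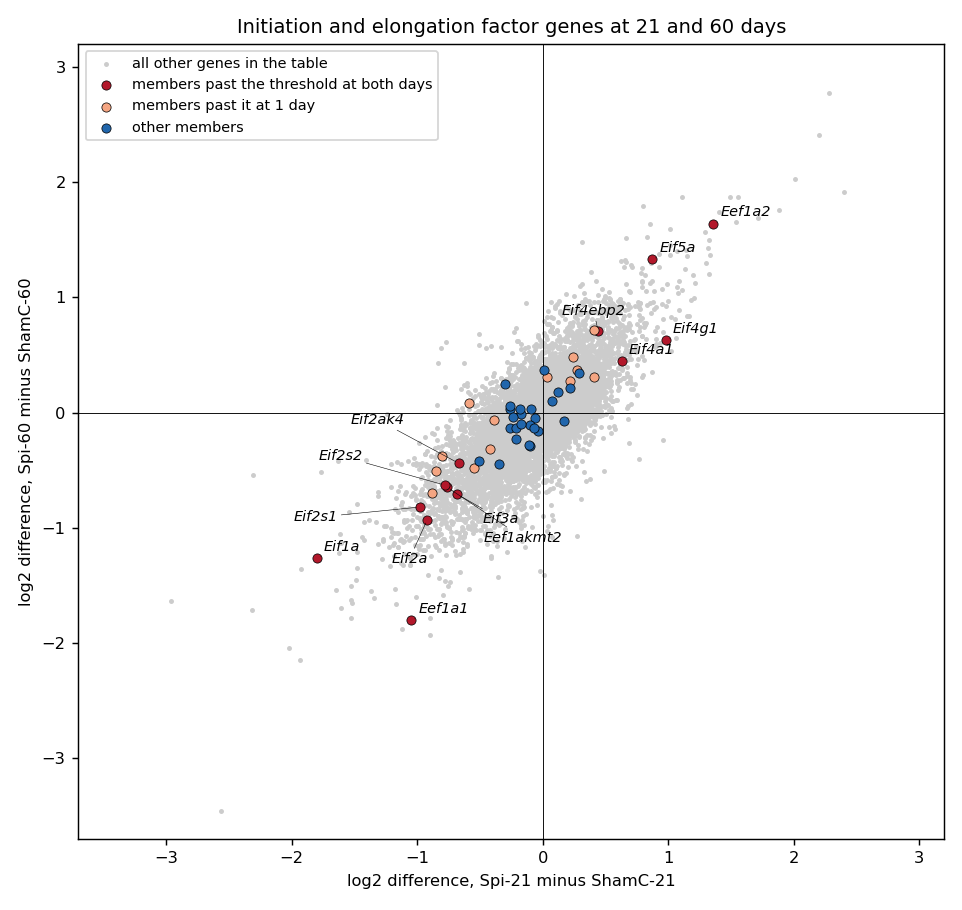
Log2 difference at 21 days (horizontal axis, Spi-21 minus ShamC-21) and at 60 days (vertical axis, Spi-60 minus ShamC-60), 1 point per gene. Grey points are the other genes of the table. Of the 51 coloured points, the 13 named ones passed at both days, with Eef1a2 and Eif5a at the upper right and Eef1a1 and Eif1a at the lower left.

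Control probe sets and marker genes were compared between the operations as well. The beta-actin control signals, read as 3′ minus 5′ probe sets, averaged 3.21 (2.86 to 3.60) in Spi-21 and 2.28 (1.97 to 2.65) in ShamC-21 arrays. They averaged 3.27 (2.75 to 3.77) in Spi-60 and 2.22 (1.92 to 2.42) in ShamC-60 arrays (exact permutation test, two-sided, adjusted over 22 tests, p = 0.0057 at each day). The operations did not overlap in this measure at either day. Read as 3′ minus middle probe sets, the beta-actin differences were 0.62 and 0.68 at 21 and 60 days (exact permutation test, adjusted p = 0.00916 and 0.0057). The GAPDH 3′ minus 5′ difference lay between 0.98 and 1.46 in Spi-21 replicates 5 to 8, between 2.57 and 3.47 in Spi-21 replicates 1 to 4, and between 2.65 and 3.26 in ShamC-21 arrays. The 21-day groups differed by -0.84 (exact permutation test, adjusted p = 0.121). The 60-day values averaged 3.38 (2.85 to 3.85) in Spi-60 and 2.57 (2.31 to 2.92) in ShamC-60 arrays, a difference of 0.81 (exact permutation test, adjusted p = 0.0137). Over 12 of 17 listed motor neuron identity genes, the mean signal was 10.08 to 10.32 in Spi-21 and 10.18 to 10.33 in ShamC-21 arrays. It was 10.14 to 10.36 in Spi-60 and 9.05 to 10.26 in ShamC-60 arrays, with ShamC-60 replicate 4 at 9.05. The mean of 9 of 11 astrocyte markers was 8.56 to 9.33 in Spi-21 and 7.86 to 9.26 in ShamC-21 arrays (exact permutation test, adjusted p = 0.0692), and 8.94 to 9.74 in Spi-60 and 8.55 to 9.81 in ShamC-60 arrays (adjusted p = 0.439). Of these astrocyte genes, 4 of 9 passed as higher at 21 days (44.4%) and 1 of 9 at 60 days (11.1%). Of all probe sets, 11.3% and 10.2% did. The other marker lists had transected minus sham differences of 0.30 and 0.31 (oligodendrocyte), 0.16 and 0.23 (microglia and macrophage), 0.06 and 0.05 (endothelium and pericyte), 0.03 and -0.34 (blood) and -0.17 and -0.31 (other spinal neurons) at 21 and 60 days. Of these, only the 60-day blood difference passed (exact permutation test, adjusted p = 0.0391), as did the 60-day motor neuron identity difference of 0.33 (adjusted p = 0.0391). Single genes passing as higher at 21 and 60 days were 1 and 4 of 12 for motor neuron identity and 2 and 1 of 10 for oligodendrocyte. They were 2 and 1 of 11 for microglia and macrophage, 2 and 0 of 5 for blood and 1 and 0 of 10 for other spinal neurons. Lower calls were 1 of 5 blood genes at 60 days and 1 of 10 other spinal neuron genes at 21 days. With single arrays left out, an alternative chosen after seeing the data, the motor neuron identity difference was 0.11 without ShamC-60 replicate 4 (exact permutation test, adjusted p = 0.133), and the blood difference was -0.17 without ShamC-60 replicate 1 (adjusted p = 0.103). The part of RNA quality and of glial RNA in the results below was not tested.

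The eEF1A pair moved in opposite directions at both days. Eef1a2, the form of adult neurons and muscle, had 7.72, 8.53 and 9.41 as lowest, median and highest log2 signal in Spi-21 arrays, against 6.71, 7.23 and 7.34 in ShamC-21 arrays. At 60 days it had 8.17, 8.53 and 9.40 in Spi-60 arrays, against 6.76, 6.96, 7.37, 6.57 and 7.10 in the 5 ShamC-60 arrays. Every transected array lay above every sham array at both days. Such a complete upward separation was seen in 3.07% of all probe sets at 21 days and 4.78% at 60 days. The difference was 1.36 ± 0.20 (SE, limma adjusted p = 4.27e-05), a 2.57-fold higher signal, at 21 days. At 60 days it was 1.64 ± 0.21 (adjusted p = 6.48e-06), or 3.12-fold.

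Eef1a1, the form of most other cells, had 8.82, 9.29 and 10.64 in Spi-21 arrays, against 10.08, 10.36 and 11.03 in ShamC-21 arrays. In Spi-60 arrays it had 8.69, 9.32 and 10.97, against 11.70, 10.97, 10.38, 12.31 and 10.86 in ShamC-60 arrays. At each day 7 of 8 transected arrays lay below all sham arrays, and Spi-21 replicate 4 and Spi-60 replicate 8 overlapped them. Those 2 arrays had the highest microglia and macrophage marker means, 7.81 and 7.80, against 7.05 or less in the other transected arrays. Between the groups that list was 0.16 and 0.23 higher after transection. The array with the highest Eef1a1 signal of each group also had the highest other spinal neuron mean of its group. These means were 6.48 (Spi-21 replicate 4), 6.80 (ShamC-21 replicate 6), 6.55 (Spi-60 replicate 8) and 7.54 (ShamC-60 replicate 4). Between the operations the other spinal neuron list differed by -0.17 and -0.31 at 21 and 60 days, and neither passed. These patterns were seen after the fact, and the part of such cells in the Eef1a1 signal was not tested. The Eef1a1 signal fell by 1.05 ± 0.32 at 21 days (SE, limma adjusted p = 0.0202) and fell by 1.80 ± 0.34 at 60 days (adjusted p = 0.000573), or 2.08-fold and 3.49-fold lower. Without ShamC-21 replicate 6 the 21-day adjusted p was 0.0547. A second Eef1a1 probe set had a difference of -0.48 (adjusted p = 0.295) at 21 days and -0.72 (adjusted p = 0.14) at 60 days. RefSeq lists 20 pseudogenes and 2 similar loci named after Eef1a1 and 0 after Eef1a2, so the Eef1a1 signal can hold RNA of such copies.

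Within each array, the difference between the Eef1a2 and Eef1a1 probe sets combines both changes. It can be compared between groups, but not read as a ratio of the transcripts, since the probes differ. It averaged -0.84 ± 0.91 in Spi-21 (SD, n = 8) and -3.26 ± 0.56 in ShamC-21 arrays (n = 6). At 60 days it averaged -0.84 ± 0.89 in Spi-60 (SD, n = 8) and -4.29 ± 1.07 in ShamC-60 arrays (n = 5). The values ran from -1.95 to 0.57 in Spi-21 and from -4.32 to -2.74 in ShamC-21 arrays. They ran from -2.27 to 0.31 in Spi-60 and from -5.74 to -3.01 in ShamC-60 arrays, so the operations did not overlap at either day. Eef1a2 alone already separated the operations at both days, so this separation is not an independent result. The ShamC-60 values spread with replicates 1 and 4, at -4.94 and -5.74, which had the lowest Eef1a2 and the highest Eef1a1 signals of that group.

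**Figure D2:**
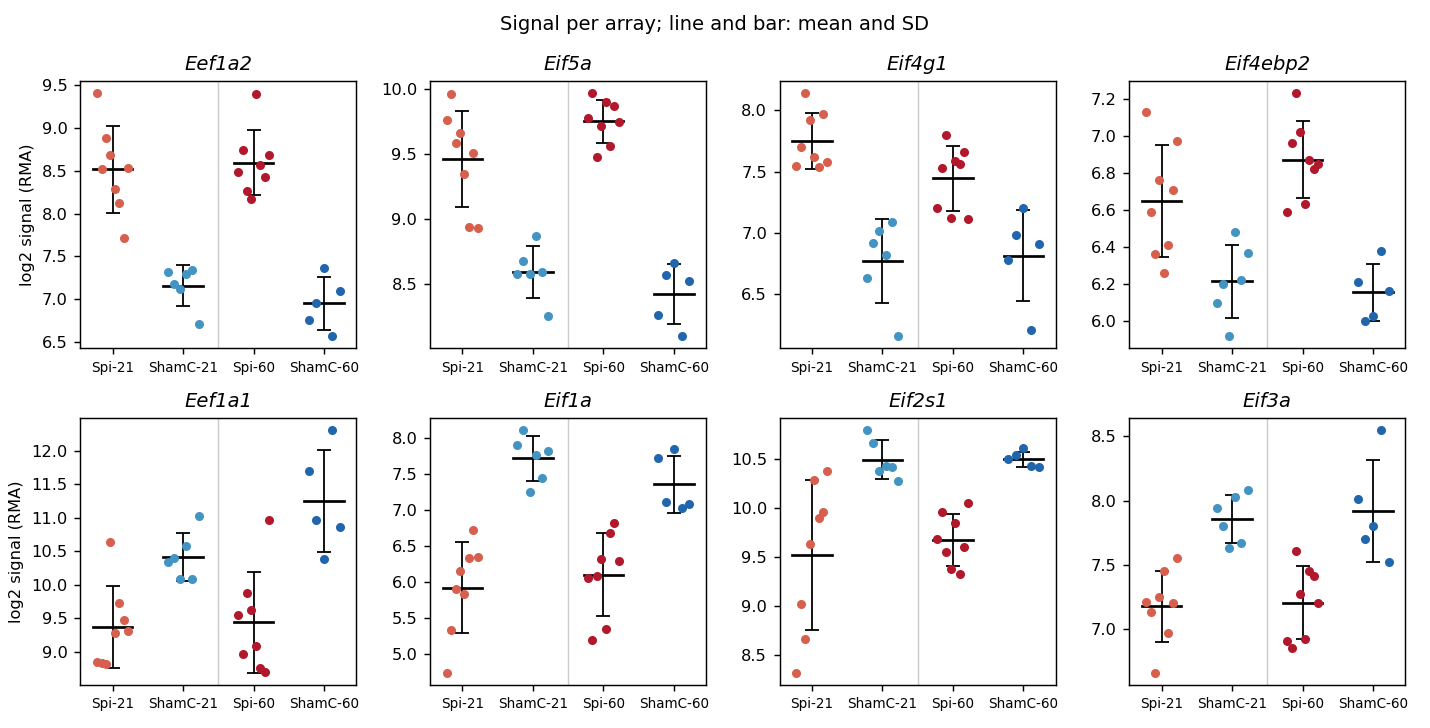
Log2 signal (vertical axis) of 8 genes in every array, by group. Points are single arrays, and the line and bar are mean and SD. Eef1a2 and Eif5a lie above all sham arrays in every transected array of both days, Eif1a lies below all of them, and Spi-21 arrays of Eif2s1 spread from 8.32 to 10.38.

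Among the other genes with an Eef1 name, the methyltransferases apart, only Eef1e1 passed, at 21 days alone. Eef1b2, Eef1d and Eef1g encode the exchange factor subunits that reload eEF1A with GTP. None of the 3 passed at either day, with differences from -0.35 to 0.12 at 21 days and from -0.45 to 0.18 at 60 days. Eef1e1, whose protein sits in the complex of tRNA synthetases, fell by 0.80 ± 0.22 at 21 days (SE, limma adjusted p = 0.00974). It averaged 8.13 ± 0.57 in Spi-21 and 8.93 ± 0.40 in ShamC-21 arrays (SD), with 4 of 8 transected arrays below all sham arrays. Its 60-day difference was -0.38 (adjusted p = 0.238).

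Eef2, the translocation factor, was higher at 60 days, with 7.80, 8.43 and 9.05 in Spi-60 arrays, against 7.83, 7.57, 7.66, 7.78 and 7.71 in ShamC-60 arrays. All but 1 transected array lay above the sham arrays, with a difference of 0.72 ± 0.21 (SE, limma adjusted p = 0.0161). At 21 days it was 0.41 ± 0.20 (adjusted p = 0.128), and without Spi-21 replicate 7 that adjusted p was 0.0397. Eef2k encodes the kinase that phosphorylates and slows eEF2. It had 5.53, 6.78 and 7.09 in Spi-21 arrays, against 6.60, 7.38 and 7.52 in ShamC-21 arrays, and fell by 0.59 ± 0.18 (adjusted p = 0.0176). The groups overlapped in 6 of 8 Spi-21 arrays, and a second Eef2k probe set had a difference of -0.01 (adjusted p = 0.953). At 60 days the difference was 0.08 (adjusted p = 0.8).

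Enzymes that methylate eEF1A lysines gave both directions. Eef1akmt2 fell by 0.76 ± 0.20 at 21 days (limma adjusted p = 0.00701), with all 8 Spi-21 arrays below all ShamC-21 arrays. It fell by 0.65 ± 0.21 at 60 days (adjusted p = 0.0257), where 4 of 8 Spi-60 arrays lay below all ShamC-60 arrays. Without Spi-21 replicates 1 to 4 the 21-day difference of Eef1akmt2 was -0.51 (adjusted p = 0.124). Without ShamC-60 replicates 1 and 4 its 60-day difference was -0.27 (adjusted p = 0.5). Eef1akmt1 was 0.37 ± 0.13 higher at 60 days (adjusted p = 0.0433), a call that was lost without any 1 of 8 arrays in turn. Eef1akmt4 passed at neither day.

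Eif1a, which encodes the scanning factor eIF1A, had the lowest difference of the 51 genes at 21 days. It had 4.74, 6.03 and 6.72 in Spi-21 arrays, against 7.26, 7.80 and 8.12 in ShamC-21 arrays. Spi-60 arrays had 5.20, 6.20 and 6.82, against 7.73, 7.11, 7.85, 7.03 and 7.09 in ShamC-60 arrays. All transected arrays lay below all sham arrays at both days, as 2.22% of all probe sets did at 21 days and 3.42% at 60 days. The signal fell by 1.80 ± 0.26 (limma adjusted p = 4.27e-05), or 3.48-fold, at 21 days, and fell by 1.26 ± 0.28 (adjusted p = 0.00233), or 2.39-fold, at 60 days. A second probe set fell by 1.05 and 0.70 (adjusted p = 0.0022 and 0.0412). A dimmer one fell by 0.82 at 21 days (adjusted p = 0.0451) and had a 60-day difference of -0.57 (adjusted p = 0.198). Eif1b and Eif1ad passed at neither day.

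Of the 3 measured eIF2 subunits, 2 were lower at both days. Eif2s1 encodes the alpha subunit, the one phosphorylated by the stress kinases. Its signals in Spi-21 replicates 1 to 8 were 8.32, 9.02, 8.66, 9.63, 10.29, 9.90, 9.96 and 10.38, against 10.28, 10.42 and 10.80 as lowest, median and highest in ShamC-21 arrays. Replicates 1 to 4 were the low ones, and replicates 5 and 8 reached the sham range. The signal fell by 0.98 ± 0.23 (limma adjusted p = 0.00409), and without Spi-21 replicates 1 to 4 the difference was -0.36 (adjusted p = 0.0893). The same split of Spi-21 arrays had different GAPDH 3′ minus 5′ values, given above, and its part in this result was not tested.

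At 60 days Eif2s1 did not split in this way. It had 9.33, 9.64 and 10.05 in Spi-60 arrays, against 10.50, 10.54, 10.61, 10.43 and 10.42 in ShamC-60 arrays, and the groups did not overlap. The signal fell by 0.82 ± 0.24 (limma adjusted p = 0.0189). Without ShamC-60 replicates 1 and 4 the difference was -0.85 and the adjusted p 0.088. Eif2s2, the beta subunit, fell by 0.78 ± 0.21 at 21 days (adjusted p = 0.00907) and fell by 0.63 ± 0.22 at 60 days (adjusted p = 0.0434). It averaged 8.94 ± 0.59 in Spi-21 and 9.72 ± 0.30 in ShamC-21 arrays, and 9.05 ± 0.33 in Spi-60 and 9.68 ± 0.24 in ShamC-60 arrays (SD). The gamma subunit Eif2s3 passed at neither day, with differences of -0.21 and -0.13.

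None of the 4 eIF2B genes, whose complex recharges eIF2 with GTP, passed at 21 days. At 60 days Eif2b4 was 0.48 ± 0.16 higher (limma adjusted p = 0.0327), with 9.48, 9.75 and 10.04 in Spi-60 arrays, against 9.18, 9.44, 9.47, 8.78 and 9.51 in ShamC-60 arrays. The catalytic subunit gene Eif2b5 had differences of -0.18 and 0.03 at the 2 days, and neither passed. Of the 3 kinases of eIF2 measured, Eif2ak4 (GCN2, the sensor of uncharged tRNA) was lower at both days. It had 6.65, 6.75 and 7.12 in Spi-21 arrays, against 7.30, 7.37 and 7.73 in ShamC-21 arrays, without overlap. The fall was 0.67 ± 0.10 at 21 days (adjusted p = 6.69e-05) and 0.44 ± 0.11 at 60 days (adjusted p = 0.00512). Eif2ak3 (PERK, the sensor of the endoplasmic reticulum) had differences of -0.10 and -0.29, and Eif2ak1 of -0.10 and -0.11, and none of these passed.

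Eif2a and Eif2d encode single-chain proteins that can bring tRNA to the ribosome without eIF2. Eif2a had 6.75, 7.59 and 7.74 in Spi-21 arrays, against 8.09, 8.30 and 8.44 in ShamC-21 arrays. It had 6.52, 7.43 and 7.87 in Spi-60 arrays, against 8.47, 7.94, 8.24, 8.26 and 8.21 in ShamC-60 arrays. The groups did not overlap at either day. The falls were 0.92 ± 0.19 (limma adjusted p = 0.00113) and 0.93 ± 0.20 (adjusted p = 0.00158). Eif2d fell by 0.42 ± 0.15 at 21 days (adjusted p = 0.0373), a call that was lost without any 1 of 8 arrays in turn, and at 60 days its difference was -0.32 (adjusted p = 0.142).

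**Figure D3:**
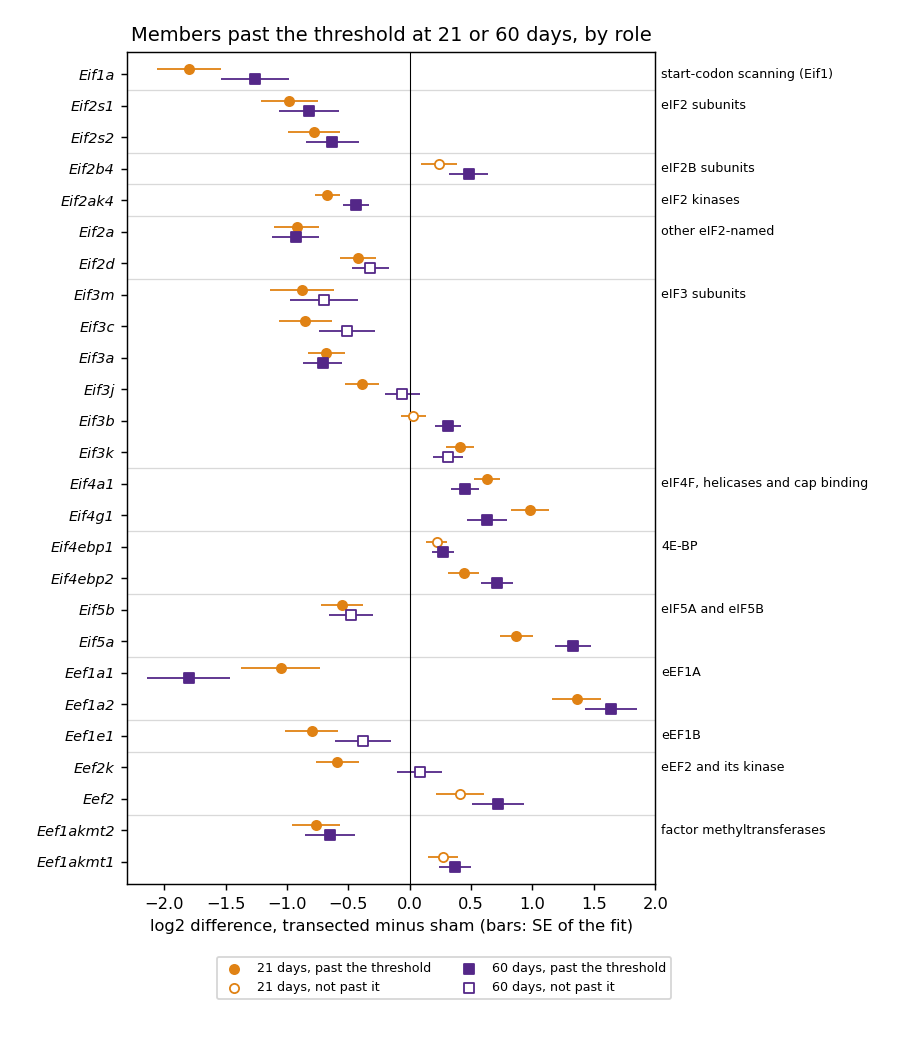
Log2 difference, transected minus sham (horizontal axis), of the 26 genes that passed at either day, grouped by role. Circles are 21 days, squares 60 days, filled where past the threshold, and bars are the SE of the fit. The eIF2 subunits lie to the left, the eIF4F and 4E-BP genes to the right, and the eIF3 genes on both sides of 0.

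The eIF3 scaffold, which holds the small subunit and the eIF4F complex together, had 11 measured subunits. At each day 8 of them had a negative and 3 a positive difference, and the called ones went both ways. At 21 days 1 was higher and 4 were lower, and at 60 days 1 was higher and 1 lower. That is 45.5% and 18.2% of the 11 genes, beside 22.6% and 19.1% of all probe sets. A probe set listed for Eif3el1 and Eif3e, given further below, was lower at both days and is not counted here. Eif3a, a core subunit of the complex, had 6.66, 7.20 and 7.55 in Spi-21 arrays, against 7.63, 7.87 and 8.08 in ShamC-21 arrays, and the groups did not overlap. At 60 days it had 6.85, 7.23 and 7.61 in Spi-60 arrays, against 8.01, 7.70, 7.80, 8.55 and 7.52 in ShamC-60 arrays, with 7 of 8 below all of them. It fell by 0.68 ± 0.15 (limma adjusted p = 0.00245) and fell by 0.71 ± 0.16 (adjusted p = 0.00272), and its second probe set also passed as lower at both days. Without ShamC-60 replicates 1 and 4 the 60-day difference was -0.47 (adjusted p = 0.0917).

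The other eIF3 genes called at 21 days were less even across arrays or probe sets. Eif3m fell by 0.88 ± 0.26 (limma adjusted p = 0.0172), with Spi-21 replicates 1 to 3 at 7.89, 7.39 and 7.53 and the other 5 between 8.71 and 9.18, against 9.06 to 9.70 in ShamC-21 arrays. Without Spi-21 replicates 1 to 4 the difference was -0.35 (adjusted p = 0.308). Eif3c fell by 0.85 ± 0.22 (adjusted p = 0.00676), while a second probe set had a difference of 0.24 (adjusted p = 0.405). At 60 days the main Eif3c probe set had a difference of -0.51 (adjusted p = 0.116). The second one went the other way, with 5.42, 5.72 and 6.39 in Spi-60 arrays, against 5.10, 5.33 and 5.45 in ShamC-60 arrays (lowest, median and highest). Eif3j, a loosely bound subunit, fell by 0.39 ± 0.14 at 21 days (adjusted p = 0.039), which was lost without any 1 of 9 arrays in turn. Eif3k was 0.41 ± 0.12 higher at 21 days (adjusted p = 0.0135), where its second probe set had a difference of 0.04. At 60 days the main probe set had 0.31 (adjusted p = 0.0745), and the second one was 0.63 higher (adjusted p = 0.00898). The second one had 7.00 to 7.66 in Spi-60 arrays, against 6.22, 7.00, 7.05, 6.27 and 6.95 in ShamC-60 arrays. Its low sham values were those of replicates 1 and 4. Eif3b was 0.31 ± 0.11 higher at 60 days alone (adjusted p = 0.0419). The subunits d, f, h, i and l passed at neither day.

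**Figure D4:**
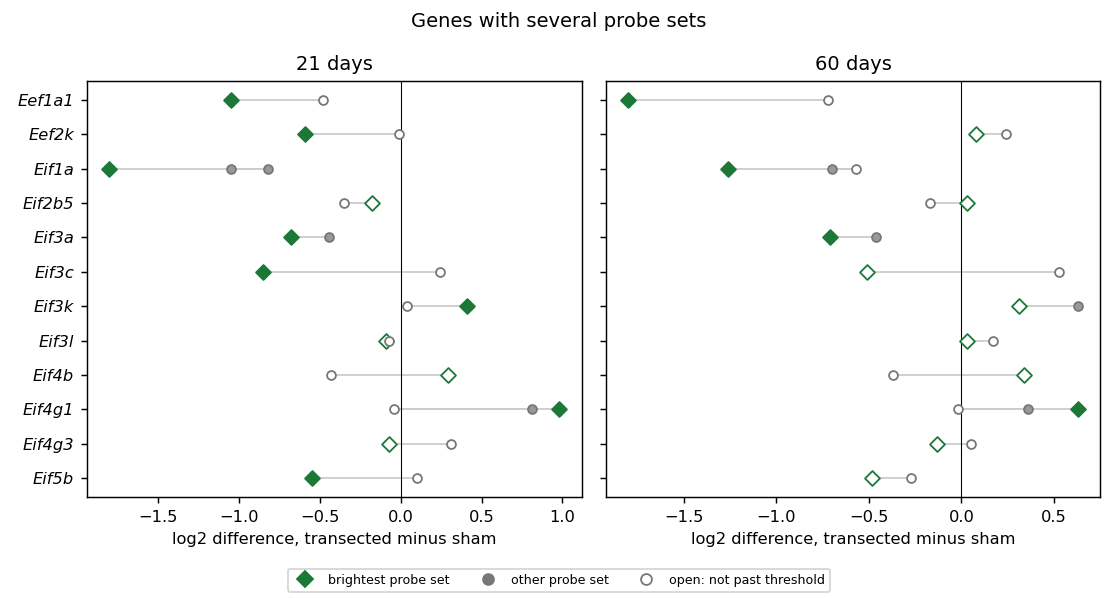
Log2 difference, transected minus sham (horizontal axis), of every probe set of the 12 genes with several, at 21 and 60 days. Diamonds are the brightest probe set of a gene, circles the others, and filled symbols passed the threshold. The Eif1a and Eif3a probe sets lie on 1 side of 0, and those of Eif3c and Eif4b on both sides.

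Of the 10 genes of the eIF4F complex, its helicases and its cap-binding relatives, 2 were higher and 0 lower at each day. This share of 20% was near the background of 22.6% of all probe sets at 21 days and 19.1% at 60 days. Eif4g1 encodes the main eIF4G scaffold. It had 7.54, 7.66 and 8.14 in Spi-21 arrays, against 6.16, 6.87 and 7.09 in ShamC-21 arrays, without overlap. At 60 days it had 7.11, 7.54 and 7.80 in Spi-60 arrays, against 6.78, 6.98, 7.20, 6.21 and 6.91 in ShamC-60 arrays, and 6 of 8 lay above all sham arrays. The difference was 0.98 ± 0.15 (SE, limma adjusted p = 8.98e-05) at 21 days and 0.63 ± 0.16 (adjusted p = 0.00741) at 60 days. A dimmer probe set was 0.81 and 0.36 higher (adjusted p = 1.04e-05 and 0.0242), and the third had differences of -0.04 and -0.02. The 60-day call was lost without ShamC-60 replicates 1 and 4, with a difference of 0.42 (adjusted p = 0.161).

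Eif4a1, the main helicase that unwinds the leader of a message, had 7.06, 7.30 and 7.61 in Spi-21 arrays, against 6.49, 6.72 and 6.85 in ShamC-21 arrays. In Spi-60 arrays it had 6.97, 7.25 and 7.60, against 6.60, 6.71, 7.15, 6.71 and 6.84 in ShamC-60 arrays. Only the 60-day groups overlapped, in 2 Spi-60 arrays. The differences were 0.63 ± 0.11 (limma adjusted p = 0.000257) and 0.45 ± 0.11 (adjusted p = 0.00685), and RefSeq lists 8 pseudogenes of Eif4a1. Its paralogue Eif4a2 had differences of -0.24 and -0.04, and Eif4g2 (DAP5, which lacks the eIF4E site) of 0.07 and 0.10, and none of these passed. Neither did Eif4b, Eif4h, Eif4g3, Eif4e2, Eif4e3 or Eif4enif1. The cap-binding gene Eif4e was not analysed here.

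Both measured 4E-BP genes, whose proteins bind eIF4E when they are not phosphorylated, were higher at 60 days. Eif4ebp2, the main form in neurons, had 6.26, 6.65 and 7.13 in Spi-21 arrays, against 5.92, 6.21 and 6.48 in ShamC-21 arrays. In Spi-60 arrays it had 6.59, 6.86 and 7.23, against 6.21, 6.00, 6.03, 6.38 and 6.16 in ShamC-60 arrays. The 21-day groups overlapped in 3 of 8 Spi-21 arrays and the 60-day groups did not. The differences were 0.44 ± 0.12 (limma adjusted p = 0.0138) and 0.71 ± 0.13 (adjusted p = 0.000473), the second a 1.64-fold higher signal. Eif4ebp1 was 0.27 ± 0.09 higher at 60 days (adjusted p = 0.0339), again with all 8 Spi-60 arrays above the sham arrays, and had 0.22 (adjusted p = 0.0546) at 21 days. The Eif4ebp1 call was lost without any 1 of 7 arrays in turn.

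Eif5a encodes eIF5A, which carries the modified amino acid hypusine and helps the ribosome through difficult stretches. It had 8.93, 9.55 and 9.96 in Spi-21 arrays, against 8.25, 8.59 and 8.87 in ShamC-21 arrays. In Spi-60 arrays it had 9.48, 9.76 and 9.97, against 8.26, 8.57, 8.66, 8.10 and 8.52 in ShamC-60 arrays. The transected arrays lay above all sham arrays at both days. The differences were 0.87 ± 0.14 (limma adjusted p = 0.000114), or 1.83-fold, and 1.33 ± 0.15 (adjusted p = 7.6e-07), or 2.52-fold. Eif5b, the factor that joins the ribosomal subunits, fell by 0.55 ± 0.17 at 21 days (adjusted p = 0.0217), and its second probe set had a difference of 0.10. At 60 days the Eif5b difference was -0.48 (adjusted p = 0.0609). It passed at that day in 7 of 11 other settings and without any 1 of 4 arrays in turn. The 21-day Eif5b call was lost in 3 of 11 other settings. The genes Eif5 and Eif6 had no probe set with a single symbol here and were not analysed among the members.

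The effect of transection was compared between the days as the 60-day difference minus the 21-day difference. None of the 51 genes passed (limma), and 0 of 12913 probe sets did. At an unadjusted p under 0.05 there were 3 members, against 7.01% of all probe sets. They were Eef2k with 0.67 ± 0.26 (limma adjusted p = 0.647), Eif4h with 0.55 ± 0.23 (adjusted p = 0.653) and Eif5a with 0.46 ± 0.20 (adjusted p = 0.67), named after their values were seen. For Eef1a1 the difference between the days was -0.75 ± 0.47 (adjusted p = 0.777). Eef1a2 gave 0.28 ± 0.29 (adjusted p = 0.886), and Eif1a gave 0.54 ± 0.38 (adjusted p = 0.801). The genes that passed at 1 day alone are thus not shown to differ between the days.

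Time within an operation gave 0 members past the threshold. Between Spi-60 and Spi-21, 7 of 51 had an unadjusted p under 0.05, against 13.2% of all probe sets, and 11 probe sets of the table (0.0852%) passed adjustment, 6 higher (0.0465%) and 5 lower (0.0387%). Between ShamC-60 and ShamC-21, 3 of 51 had an unadjusted p under 0.05, against 3.97% of all probe sets, and 0 passed. The Eef1a1 signal was 0.83 ± 0.36 higher in ShamC-60 than in ShamC-21 arrays (limma adjusted p = 0.999).

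The neighbouring steps of translation were read from lists in the same fit. These lists were chosen with earlier results of these data known, so their shares are not independent of those results. Of 9 poly(A)-binding and cap-partner genes, 0 were higher and 5 lower at 21 days, and 0 were higher and 4 lower at 60 days. That is 55.6% and 44.4% of the list, beside 22.6% and 19.1% of all probe sets. Their median differences were -0.45 and -0.47, beside 0.01 and 0.02 for all probe sets. Fmr1, the fragile X translational repressor, fell by 1.61 ± 0.33 (limma adjusted p = 0.00124) and 1.70 ± 0.34 (adjusted p = 0.00117). Ncbp2, the nuclear cap-binding subunit, fell by 0.95 and 0.99, and Pdcd4, an inhibitor of eIF4A, by 0.61 and 0.64. Of 5 termination and recycling genes, 0 were higher and 3 lower at 21 days, and 0 and 1 at 60 days, or 60% and 20% of them (medians -0.34 and -0.07). Denr, which acts in recycling and restarting ribosomes, fell by 0.74 ± 0.12 (adjusted p = 0.000164) and 0.71 ± 0.13 (adjusted p = 0.000375), and Gspt1 and Etf1, the release factors, fell by 0.48 and 0.34 at 21 days.

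Upstream of eIF4F, 0 of 15 genes of the mTOR pathway passed at 21 days and 14 of 15 did not pass at 60 days (medians 0.08 and 0.10), where 22.6% and 19.1% of all probe sets passed. The exception was Mlst8, a subunit shared by both mTOR complexes, 0.41 ± 0.12 higher at 60 days (limma adjusted p = 0.0169), or 6.67% of the list. The list of the integrated stress response holds genes upstream and downstream of eIF2. Of its 12 measured genes, 2 were higher and 2 lower at each day (medians -0.03 and -0.10). That is 33.3% of the list at each day, beside 22.6% and 19.1% of all probe sets. Only Chac1 was higher at both days. This enzyme of glutathione breakdown was 0.77 ± 0.22 (adjusted p = 0.0142) and 0.75 ± 0.23 (adjusted p = 0.0253) higher. Atf4, the central transcription factor of this response, had differences of -0.09 (adjusted p = 0.666) and 0.36 (adjusted p = 0.0754). At 21 days Gcn1, the activator of GCN2, was 0.35 higher, while Atf3 fell by 1.77 and Ppp1r15b, a subunit of the eIF2 phosphatase, fell by 0.57. At 60 days Ppp1r15a, the inducible partner of the same phosphatase, was 0.26 higher, while Ddit3 and Dnajc3 fell by 0.52 and 0.34.

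Of 5 genes that make hypusine on eIF5A or diphthamide on eEF2, 2 were higher at 21 days and 1 at 60 days, and 0 were lower, or 40% and 20% of the list, beside 22.6% and 19.1% of all probe sets (medians 0.12 and 0.00). Dohh, which completes hypusine, was 0.41 ± 0.10 (limma adjusted p = 0.00514) and 0.35 ± 0.11 (adjusted p = 0.0223) higher, and Dph7 was 0.54 higher at 21 days. Of 19 genes on the list of cytosolic tRNA synthetases, which also holds Aimp1 and Aimp2, scaffold proteins of their complex, 1 was higher and 3 lower at 21 days, and 2 were higher and 1 lower at 60 days. These shares of 21.1% and 15.8% were near the background (medians -0.07 and 0.00). Vars1, the valine enzyme, was 1.15 ± 0.21 (adjusted p = 0.000585) and 1.36 ± 0.23 (adjusted p = 0.000176) higher, with all transected arrays above all sham arrays. Eprs1 fell by 0.65 and 0.56, Iars1 and Nars1 fell by 0.69 and 0.53 at 21 days, and Yars1 was 0.57 higher at 60 days. The list of mitochondrial factors held 6 measured genes, among them Eefsec, the cytosolic elongation factor for selenocysteine. None of the 6 passed at 21 days, and 1 of 6 (16.7%) did at 60 days, Mtif2, a mitochondrial initiation factor, which fell by 0.69 (medians -0.22 and -0.16).

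**Figure D5:**
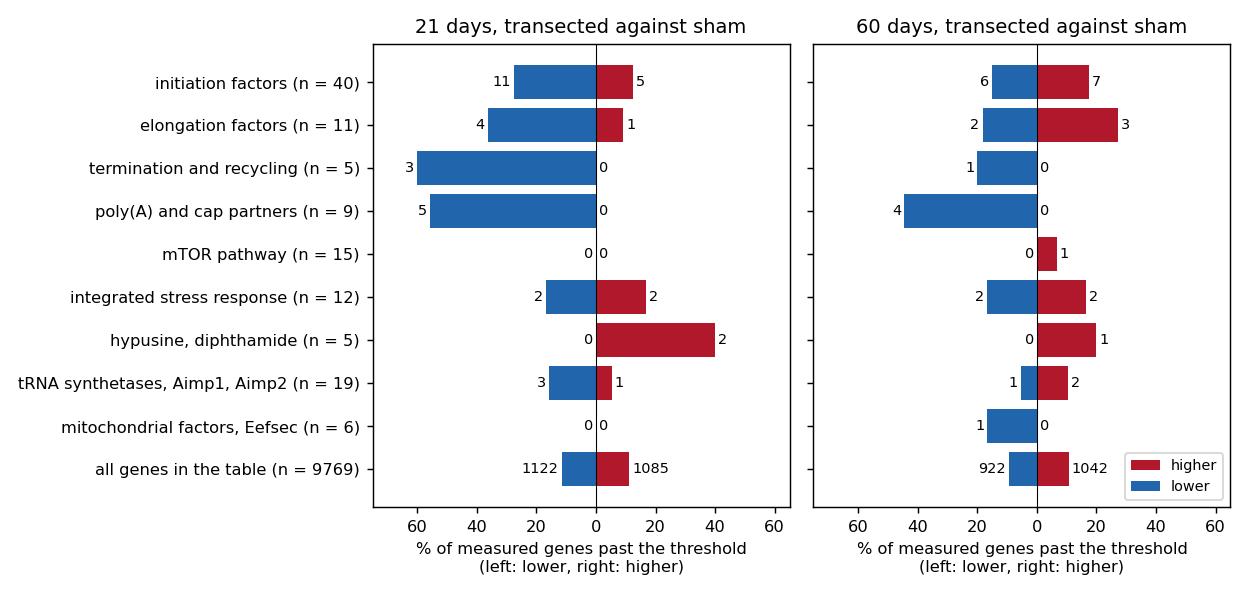
Percent of the measured genes of each list past the threshold (horizontal axis), lower to the left and higher to the right, at 21 and 60 days. Numbers at the bars are genes, and the lowest bar is all 9769 genes. The poly(A) and cap partner list and the termination and recycling list have only lower calls at both days. The mTOR list and the mitochondrial list have no calls at 21 days.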

How the data were processed

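Gene expression of laser-dissected tail motor neurons was measured on 27 Affymetrix arrays in 4 groups, taken from the sample titles. Per the submitters' processing notes, RMA made the deposited log2 signal of each probe set. The version of RMA is not given in the sources used here. Arrays have no count depth, so the number of arrays limits the precision. Array medians lay between 6.31 and 6.41, and 0 pairs of arrays held identical values. Gene names came from the platform annotation, in which 11880 of 12913 tested probe sets had 1 symbol, 320 had several and 713 had none listed. The 5 member probe sets with several symbols and 6 control probe sets stayed out of the main results.

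The limma package (3.58.1, under R 4.3.3) fitted all 12913 probe sets at once over the 4 groups, using lmFit and eBayes as preset and no signal filter. Tests were two-sided and adjusted by Benjamini-Hochberg over the whole table, with a threshold of 0.05. The steps were tested on simulated data. The members and lists were chosen with earlier results of these data known. The naming rule took up to 10 called members per direction and day by size of difference, a fixed set of 21 genes, and up to 3 called genes per direction of each neighbouring list. Eif2d, Eif3j and Eif5b fell outside that rule and were named so that each called member is accounted for, and Eif4h and Atf4 were added after their values were seen. Array controls and 7 marker lists were compared by exact permutation tests in Python 3.11.15 with numpy 2.4.6. Plots used matplotlib 3.10.9. The alternatives were 11 other settings and each array left out in turn.

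Same-numbered samples of the operations did not deviate together, with correlations of -0.20 to 0.18 at 21 days and -0.31 to 0.33 at 60 days, so the numbers were not treated as pairs.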

Additional observations from a re-analysis of the deposited data

Results flagged for a closer look

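Single arrays stood apart from the rest of their group in 6 of 132 combinations of 33 named genes and 4 groups, where about 1 in 20 groups (6.6) would be flagged by chance. Eef2k and Eif2ak3 were both lowest in Spi-21 replicate 7, at 5.53 (next array 6.55) and 5.61 (next array 6.22). Eif2s2 was lowest in Spi-60 replicate 6, at 8.33 (next array 8.90). Eef1a2 was lowest in ShamC-21 replicate 6, at 6.71 (next array 7.12). Eef1d was lowest in ShamC-60 replicate 4, at 9.55 (next array 10.17), and Eif2b5 in ShamC-60 replicate 2, at 6.60 (next array 6.80).

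Probe sets annotated with several symbols were not used for the members, and some of them also differed between the operations. A probe set listed for Eif3el1 and Eif3e averaged 8.86 ± 0.56 in Spi-21 and 9.49 ± 0.08 in ShamC-21 arrays (SD), a difference of -0.63 (limma adjusted p = 0.017). At 60 days it averaged 8.91 ± 0.19 in Spi-60 and 9.66 ± 0.39 in ShamC-60 arrays, a difference of -0.75 (adjusted p = 0.00947), with all 8 Spi-60 arrays below the sham arrays. The brightest of 3 probe sets listed for Eif5-ps1 and Eif5 had a difference of -0.41 at 21 days (adjusted p = 0.0446), and the other 2 had 0.32 and 0.06 and did not pass. A dim probe set listed for Eif2s3y and Eif2s3 was 0.31 higher at 21 days (adjusted p = 0.0262), and had -0.09 at 60 days (adjusted p = 0.594).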

How the results depend on the processing

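At 21 days the lower count of 15 went to 8 without Spi-21 replicates 1 to 4. At 60 days the higher count of 10 and the lower count of 8 both went to 3 without ShamC-60 replicates 1 and 4. The comparison of the days had 1 member past the threshold without Spi-21 replicates 1 to 4, and Spi-60 against Spi-21 had 2 without Spi-21 replicates 5 to 8 and 3 without replicates 1 to 4. The cause was not tested, and these fits hold fewer arrays. With single arrays left out, the 21-day counts ran from 6 to 9 higher and from 13 to 15 lower, and the 60-day counts from 6 to 11 in each direction. The higher count of 10 at 60 days was 6 without Spi-60 replicate 1, 2 or 5, or without ShamC-60 replicate 1 or 4. Calls at 60 days were lost without any 1 of 8 arrays in turn for Eif2s2, 7 for Eif3b, 5 for Eif2b4 and 4 for Eef1akmt2. Without Spi-21 replicates 5 to 8, Eef2k, Eif2d, Eif3j and Eif3k no longer passed at 21 days, while Eif1b (-0.52, adjusted p = 0.00601), Eif2b4 (0.49, 0.0202), Eif4h (-0.51, 0.0388) and Eif4ebp1 (0.30, 0.0248) did. With the replicate block the counts were 7 higher and 14 lower at 21 days and 11 higher and 10 lower at 60 days. In that fit Eif2d was no longer past the threshold at 21 days (adjusted p = 0.0513), and Eif4ebp1 at 21 days (0.0441), Eef1b2 (0.0453), Eif2b2 (0.0076) and Eif5b (0.0291) at 60 days passed. At 21 days 2 of 6 and at 60 days 1 of 5 same-numbered samples correlated best with their own number. Taking the median of a marker list in place of its mean, the 60-day blood difference of -0.34 became -0.27 (adjusted p = 0.133) and that of motor neuron identity 0.10 (adjusted p = 0.831). With each array left out of the marker and control tests in turn, chosen after seeing the data, the 60-day blood difference ran from -0.43 to -0.17 and passed in 2 of 13 fits, and that of motor neuron identity ran from 0.11 to 0.41 and passed in 5 of 13. Differences that did not pass with all arrays but did without some array were those of astrocyte markers at 21 days (0.37 to 0.65), oligodendrocyte markers (0.17 to 0.41 and 0.20 to 0.53) and GAPDH 3′ minus middle (-0.62 to -0.45 and 0.21 to 0.34) at 21 and 60 days. The arrays concerned were ShamC-21 replicate 6 for both marker lists at 21 days, Spi-21 replicate 8 for the astrocyte list as well, ShamC-60 replicate 1 for the oligodendrocyte list, and Spi-21 replicates 1 and 2, ShamC-60 replicate 1 and Spi-60 replicate 6 for GAPDH. No called value changed sign under any setting run. Quantile normalization gave medians of 0.032 and 0.029 over all probe sets and of -0.11 and -0.03 over the members.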
